A study of Mus musculus with 4 samples.

Results

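The genes described here are AJUBA, RAI14, EHD2, OSR2, PLCD1, TTBK1, C12orf68, EPHA3, PTPRK and LPAR3, 10 of the 38588 gene models in the deposited tables. They were chosen by their measured reads in these same libraries, as genes far higher in activated RbLoTem cells than in activated RbHiTn cells and seldom discussed in T cells. Their difference between the subsets is therefore a description and carries no test. All 10 were found by symbol. RbLoTem cells are FoxP3- CD4+ T cells with low CD45Rb, high CD44 and low CD62L, the effector/memory subset, and RbHiTn cells are FoxP3- CD4+ T cells with high CD45Rb, low CD44 and high CD62L, the naive subset. Both were sorted by flow cytometry from spleens of resting mice of the reporter strain C57BL/6-Foxp3tm1Flv/J and cultured for 72 h on wells coated with 2 µg of antibody against CD3, the signalling part of the T cell receptor. Each subset has 2 libraries, of which 1 carries the suffix o in its label. Neither the meaning of the suffix nor the number of mice is stated, and nothing says that the libraries came from separate cultures. The spread behind each p-value is therefore that between libraries, which may be technical.

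These genes are best known outside the T cell lineage. AJUBA, RAI14 and EHD2 belong to the machinery that ties membranes and junctions to the actin skeleton, in epithelium, muscle and other adherent cells. EPHA3, PTPRK and LPAR3 are surface receptors that read contact with neighbouring cells or a lipid in the medium, while PLCD1 and TTBK1 are enzymes that act inside the cell, and OSR2 is a developmental transcription factor. C12orf68 is a placeholder name of an open reading frame.

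The libraries held 4673858 and 6431991 reads within genes for RbLoTem cells and 6514106 and 4192083 for RbHiTn cells, in each case without and then with the suffix. The cells were murine but the models carry human names and coordinates of an unnamed build. Mouse reads can be lost where the sequences differ, and a gene listed at 0 may still have been transcribed. Of 13 T cell markers 10 had reads, among them LCK, CD3E and CD3G, while CD2, CD3D and CD28 were at 0 in all 4 libraries. CD4 had only 2 and 3 reads in RbLoTem cells and 4 and 1 in RbHiTn cells. Of the 8 markers tested by edgeR, 0 were called higher in RbLoTem cells and 3 lower. These 3 were LCK, CD3E and CD3G, with log2 fold changes of -0.26, -0.93 and -1.10. In bulk RNA, a larger share of cells with a transcript and more transcript in each cell cannot be told apart.

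Mouse sequence upstream of these genes is shown as a description only. The 10 genes differed in the same direction because they were chosen for it. The RefSeq table of the GRCm38.p6 assembly matched 8 of the 10 by symbol, with 10 promoters, and the 250 bases before each start site were searched on both strands. The letters GGAATG, the core of the site of TEAD factors, through which AJUBA's Hippo pathway acts, were in 4 of the 10 promoters, against 12.6% of all 32851 promoters in the table. The AP-1 letters TGANTCA were in 0 of the 10, against 6.75% of all. The RUNX letters TGTGGT were also in 0 of the 10, against 14.0% of all. The GATA letters AGATAA were in 1, against 9.99%, and the TATA box letters TATAAA in 1, against 12.4%. No GGAATG overlapped another of these motifs. The motifs were picked after the values of the genes were seen. A match describes letters only, and binding was not measured. The 4 promoters with GGAATG, or its reverse complement, follow 5′ to 3′ along the gene, with the match in capitals. They lie at chr14:54577662-54577911 (minus strand) for AJUBA, chr15:10714099-10714348 (minus strand, 1 of 2 promoters) for RAI14, chr16:63864176-63864425 (minus strand) for EPHA3 and chr10:28074570-28074819 (plus strand) for PTPRK.
AJUBA: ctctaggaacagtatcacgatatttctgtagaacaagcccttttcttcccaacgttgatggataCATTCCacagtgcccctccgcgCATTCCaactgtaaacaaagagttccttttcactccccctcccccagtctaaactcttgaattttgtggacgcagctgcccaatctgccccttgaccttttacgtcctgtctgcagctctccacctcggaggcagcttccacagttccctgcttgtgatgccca
RAI14: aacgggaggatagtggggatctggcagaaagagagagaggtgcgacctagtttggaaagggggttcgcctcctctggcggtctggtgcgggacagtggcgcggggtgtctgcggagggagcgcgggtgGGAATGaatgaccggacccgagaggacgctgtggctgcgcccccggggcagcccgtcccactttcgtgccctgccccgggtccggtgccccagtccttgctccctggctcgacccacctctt
EPHA3: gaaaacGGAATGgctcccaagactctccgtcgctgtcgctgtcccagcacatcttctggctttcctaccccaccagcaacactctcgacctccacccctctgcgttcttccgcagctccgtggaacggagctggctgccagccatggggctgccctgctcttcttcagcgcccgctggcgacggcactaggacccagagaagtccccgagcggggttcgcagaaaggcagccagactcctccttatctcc
PTPRK: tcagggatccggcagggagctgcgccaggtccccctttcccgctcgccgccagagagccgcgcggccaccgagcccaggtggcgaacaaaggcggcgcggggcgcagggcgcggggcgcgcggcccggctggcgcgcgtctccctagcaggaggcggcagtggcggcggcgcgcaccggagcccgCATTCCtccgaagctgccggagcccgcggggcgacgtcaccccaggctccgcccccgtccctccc

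AJUBA held 2 of the matches, with first bases at -186 and -164 relative to the start site. In EPHA3, RAI14 and PTPRK the match began at -244, -122 and -65. The remaining promoters, of EHD2, PLCD1 (which has 2), TTBK1 and LPAR3, and the other one of RAI14, lacked these letters. Of the 10 promoters 7 were richer in G and C than the median of all promoters, which was 52.4%. PTPRK was at 79.2% and AJUBA at 50.8%.

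AJUBA encodes a LIM domain scaffold that binds alpha-catenin at adherens junctions and restrains the LATS kinases of the Hippo pathway. It had 126 and 195 exon reads in the RbLoTem libraries, against 0 and 1 in the RbHiTn libraries. Both RbLoTem libraries were high and the RbHiTn reads were close to none. The level was an RPKM (reads scaled to exon length and to all reads within genes of the library) of 4.79 ± 0.397 in RbLoTem cells and 0.0199 ± 0.0282 in RbHiTn cells (SD, n = 2 libraries each, as for all values below). The ratio of reads, scaled by library size, was 310.8, with an exact 95% counting interval of 55.4 to 12313. It was 122.9 without the RbHiTn library lacking the suffix, and at a bound of 62.6 without the one carrying it. In the human coordinates of the tables AJUBA spans 23440383 to 23451851 of chromosome 14.

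RAI14 encodes ankycorbin, an ankyrin repeat protein that associates with actin bundles. It had 135 and 205 reads in RbLoTem cells, against 2 and 0 in RbHiTn cells. The RPKM was 3.94 ± 0.274 in RbLoTem cells and 0.0199 ± 0.0282 in RbHiTn cells. The read ratio was 164.6 (interval 45.2 to 1365). Without the RbHiTn library lacking the suffix the 0 reads left gave a bound of 43.4, and without the other the ratio was 99.5. RAI14 spans 34656342 to 34832732 of chromosome 5.

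EHD2 encodes a membrane-bound ATPase that stabilizes caveolae. It had 47 and 64 reads in RbLoTem cells, against 2 and 1 in RbHiTn cells, a ratio of 35.8 (interval 11.9 to 176). The RPKM was 2.55 ± 0.0191 in RbLoTem cells, the lowest mean of the 10, and 0.0695 ± 0.0123 in RbHiTn cells. Only 55.9% of its RbLoTem reads matched a single place, against a median of 100% over the 5496 models with at least 50 such reads. With unique reads alone it had 31 and 31 in RbLoTem cells against 1 and 1 in RbHiTn cells, a ratio of 30.0. EHD2 spans 48216600 to 48246391 of chromosome 19.

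OSR2, a zinc finger transcription factor gene needed for palate formation in mice, had 56 and 68 reads in RbLoTem cells, against 1 and 0 in RbHiTn cells. The RPKM was 3.85 ± 0.34 in RbLoTem cells and 0.0262 ± 0.0371 in RbHiTn cells. The read ratio was 120.1 (interval 21.2 to 4780). Without the RbHiTn library lacking the suffix, the 1 left had 0 reads and the bound was 15.8, and without the other the ratio was 72.6. OSR1, the relative listed for OSR2, had 0 reads in every library. OSR2 spans 99956631 to 99964332 of chromosome 8.

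PLCD1 encodes phospholipase C delta 1, which splits the membrane lipid PIP2 into a pair of second messengers. It had 72 and 131 reads in RbLoTem cells, against 1 and 1 in RbHiTn cells. The RPKM was 4.15 ± 0.813 in RbLoTem cells and 0.0454 ± 0.0139 in RbHiTn cells, and the read ratio was 98.3 (interval 26.9 to 817). PLCD1 spans 38048987 to 38071253 of chromosome 3.

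TTBK1 encodes tau tubulin kinase 1, best known in neurons, where it phosphorylates tau. It had 55 and 103 reads in RbLoTem cells, against 0 and 0 in RbHiTn cells, at least 51.0-fold higher when 3 reads over the RbHiTn group are taken as the floor. This bound was 20.2 without the RbHiTn library lacking the suffix and 30.8 without the one carrying it. Its RPKM of 5.67 ± 1.23 in RbLoTem cells was the highest mean of the 10. It was also the only one of the 10 whose median coverage was above 0, at 3 and 5 reads in the RbLoTem libraries. Of the 5 neuron and glia marker models, RBFOX3, NEFL, NEFM and GFAP had 0 reads in all libraries. The fifth, MAP2, had 11 and 14 reads in RbLoTem cells against 45 and 26 in RbHiTn cells. TTBK1 spans 43215727 to 43237834 of chromosome 6.

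C12orf68, a model with 1 exon on chromosome 12 from 48577366 to 48579709, had 32 and 40 reads in RbLoTem cells, against 0 and 0 in RbHiTn cells. This was at least 23.2-fold higher against the same floor. The RPKM was 2.79 ± 0.189 in RbLoTem cells and 0 in both RbHiTn libraries.

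EPHA3, a receptor tyrosine kinase gene for ephrin-A ligands, and PTPRK were the only members with more than 3 reads in RbHiTn cells. EPHA3 had 154 and 262 reads in RbLoTem cells, against 10 and 8 in RbHiTn cells. The RPKM was 5.52 ± 0.825 in RbLoTem cells and 0.258 ± 0.0395 in RbHiTn cells. The ratio was 22.4, with an interval of 14.0 to 38.1 that covers counting error only. EPHA3 spans 89156674 to 89531284 of chromosome 3.

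PTPRK encodes a receptor tyrosine phosphatase of the MAM family that binds its own kind on neighbouring cells, and its loss in the LEC rat impairs the development of CD4+ T cells. It had the most reads, with 180 and 242 in RbLoTem cells against 12 and 12 in RbHiTn cells. The RPKM was 4.20 ± 0.0692 in RbLoTem cells and 0.259 ± 0.0796 in RbHiTn cells, and the read ratio of 17.0 (interval 11.3 to 26.9) was the smallest of the 10. PTPRK spans 128289924 to 128841870 of chromosome 6.

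LPAR3, a G protein-coupled receptor gene for lysophosphatidic acid, rested on the fewest reads, 10 and 23 in RbLoTem cells against 0 and 1 in RbHiTn cells. The RPKM was 2.81 ± 1.00 in RbLoTem cells and 0.117 ± 0.166 in RbHiTn cells. The ratio of 32.0 had an interval of 5.35 to 1300, which includes folds far below those of the other members. LPAR3 spans 85279599 to 85331827 of chromosome 1.

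**Figure D1:**
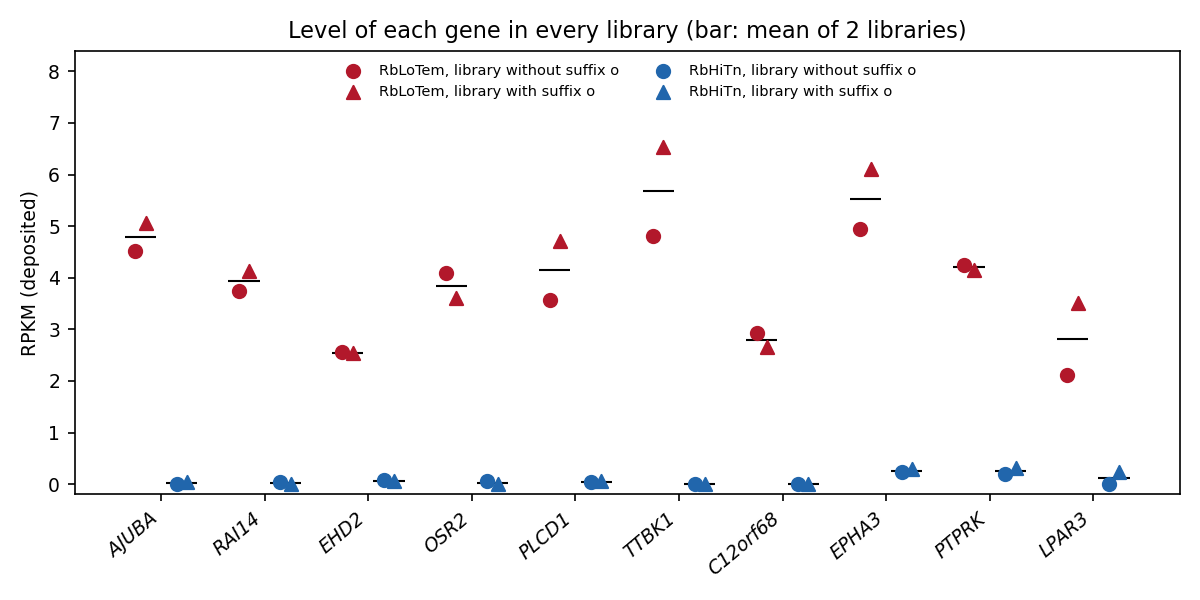
Deposited RPKM (vertical axis) of the 10 genes in each of the 4 libraries, with RbLoTem in red to the left and RbHiTn in blue to the right, circles for libraries without the suffix o, triangles for those with it, and a bar at the mean of 2 libraries. RbLoTem libraries lie between 2.11 and 6.54 and RbHiTn libraries between 0 and 0.316.

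**Figure D2:**
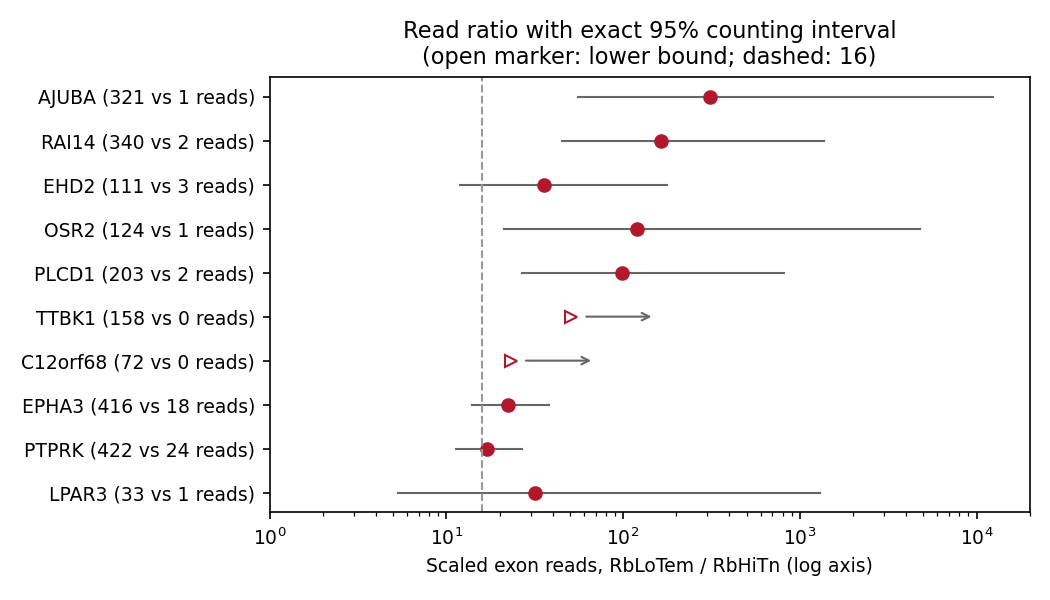
Scaled exon reads in RbLoTem over RbHiTn cells on a log axis, with exact 95% counting intervals (lines), summed reads beside each name and a dashed line at 16. Open markers for TTBK1 and C12orf68 are lower bounds, and the intervals of EPHA3 and PTPRK are the narrowest since they alone had more than 3 reads in RbHiTn cells.

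For the sum of the 10 genes, RbLoTem libraries held 867 and 1333 reads and RbHiTn libraries 28 and 24. No gene overlapped between the subsets, which the choice of genes fixes. All 10 passed the filter on low counts and were called higher by edgeR's quasi-likelihood test, beside 24.3% of the 6539 models tested, and nothing is read from that count since this contrast chose them. All 10 also had a mean RPKM above 2 in RbLoTem cells and at least 16 times the RbHiTn mean. These are the 2 expression limits among the study's criteria for candidates. Of the 4712 models above that RPKM 25, or 0.531%, met both, these 10 among them. Nothing is read from this either, since the same values chose the 10 genes. PTPRK was just inside with a 16.2-fold difference in mean RPKM, followed by EPHA3 at 21.4 and LPAR3 at 24.0. The nearest models outside were GATM at 15.8, CIB2 at 15.4 and S100A6 at 14.8. By scaled reads, 10 members were at a ratio or bound of 16 or more. Without the RbHiTn library lacking the suffix 6 were, since C12orf68 was then at a bound of 9.19, OSR2 at a bound of 15.8, LPAR3 at 12.6 and PTPRK at 13.5. Without the other RbHiTn library 8 were, with LPAR3 at a bound of 6.44 and C12orf68 at a bound of 14.05.

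The 2 RbLoTem libraries gave similar values for most of the genes. The ratio of the library with the suffix to the one without it, scaled by library size, ran from 0.882 for OSR2 to 1.67 for LPAR3. Its counting interval included 1 for 9 of the 10. EPHA3 was the exception, with a ratio of 1.24 (interval 1.01 to 1.52). By level the genes were of middling abundance. Of the 6539 tested models 51.4% had a higher mean RPKM in RbLoTem cells than TTBK1 and 67.0% a higher one than EHD2, and the median tested model was at 6.06. In order of mean RPKM they ran TTBK1, EPHA3, AJUBA, PTPRK, PLCD1, RAI14, OSR2, LPAR3, C12orf68 and EHD2. Neighbours in this order differed by less than the larger of their SDs, apart from AJUBA over PTPRK, OSR2 over LPAR3 and C12orf68 over EHD2. Levels are compared across human models, so mouse reads lost on some of them can alter the order.

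The reads lay almost wholly in exons. Over the 2 RbLoTem libraries 1 read of OSR2 was in the gene outside exons and none of the other 9 genes had any, and only 4 reads on the 10 genes together crossed from an intron into an exon. For 8 genes every RbLoTem read matched a single place, as for 69.3% of the models with at least 50 reads. The exceptions were EHD2, above, and AJUBA at 88.8%. In AJUBA the reads that matched a single place and the reads on exon-exon junctions were equal in number in each library, 112 and 173 in RbLoTem cells.

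Junction reads made up 95.1% of the RbLoTem reads of PLCD1, 88.2% of PTPRK, 75.3% of TTBK1 and 70.6% of RAI14. They made up 59.9% for EPHA3, 51.6% for OSR2, 43.2% for EHD2 and 39.4% for LPAR3, below the lower quartile of 68.4% over models with at least 50 reads. C12orf68 has no junction. With junction reads alone, LPAR3 had 13 reads in RbLoTem cells and 0 in RbHiTn cells, a bound of only 4.20-fold. A median coverage of 0, meaning that most bases of the model had no read, was found in both RbLoTem libraries for 9 of the 10 genes, and for 90.4% of all models with at least 50 reads.

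**Figure D3:**
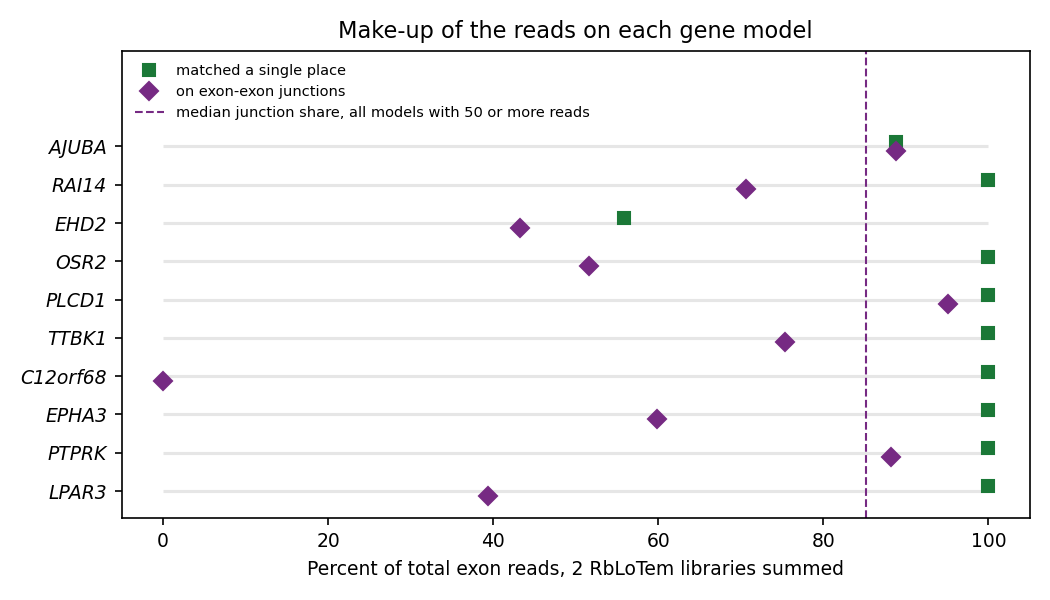
Percent of total exon reads of the 2 RbLoTem libraries that matched a single place (squares) or lay on exon-exon junctions (diamonds) for each gene, with the median junction share of all models with 50 or more reads as a dashed line at 85.1%. EHD2 stands apart in its unique reads at 55.9%, and C12orf68 has 1 exon and so no junction.

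Because several of these genes are typical of adherent cells, markers of such cells were counted. Of 25 fibroblast, endothelial and epithelial marker models 15 had 0 reads in all 4 libraries, and no library had more than 7 reads on any of them. Of all 38588 models only 8416 to 8678 had exon reads in a library. The T cell markers CD2, CD3D and CD28 were also at 0 in these T cells. Whether adherent cells were present was not tested. Fibroblast and stromal markers summed to 7 and 13 reads in RbLoTem cells against 5 and 1 in RbHiTn cells, over 11 models, with COL3A1, DCN, FN1, SPARC, PDGFRA and PDPN at 0 throughout. Endothelial markers summed to 4 and 2 reads in RbLoTem cells against 0 and 0 in RbHiTn cells, all on KDR, with CDH5, VWF and TIE1 at 0. Epithelial markers summed to 7 and 11 reads in RbLoTem cells against 9 and 5 in RbHiTn cells, with EPCAM at 0. Mast cell and basophil markers summed to 13 and 18 reads in RbLoTem cells against 9 and 6 in RbHiTn cells, mostly on HDC, with CPA3 and FCER1A at 0. In the other direction, 5 of 7 B cell marker models were tested and all 5 were called lower, at 8 and 12 summed reads in RbLoTem cells against 179 and 122 in RbHiTn cells. Of the monocyte and macrophage markers SPI1 and CTSS could be tested and were lower, at 9 and 15 summed reads for the list in RbLoTem cells against 82 and 52 in RbHiTn cells.

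Position in the genome was not shared. The 10 models lie on 8 human chromosomes, and the pairs on chromosomes 3 and 6 are far apart. The nearest tested models within 500 kb on either side, which the choice of genes did not use, numbered 15, next to 9 of the genes, and were looked up after the values were seen. Of these 1 was called higher, against the background of 24.3%, and 5 lower, against 23.6% of all tested models called lower. The 1 was STK3 beside OSR2, at 0.64 (SE 0.20) on the log2 scale. Both neighbours of TTBK1, CUL9 and ZNF318, were lower, with log2 fold changes of -1.09 and -1.30, as were both neighbours of EHD2, GLTSCR1 and GLTSCR2, with -1.17 and -0.55. The order is that of the human models and was not checked in the mouse.

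Over the 4 libraries, the other models whose log2(RPKM + 0.1) lay closest to the members' median profile were PRDM1 at a Euclidean distance of 0.581, INHBA at 1.19 and HIC1 at 1.37. PRDM1 was at an RPKM of 2.86 and 3.49 in RbLoTem cells against 0.0241 and 0.0749 in RbHiTn cells. These are descriptions over 4 libraries that fall into 2 groups, so the likeness is mostly that of the difference between subsets.

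Relatives of the 10 genes by protein family or pathway were taken from 13 lists of 138 symbols. A model was found for 103, reads for 78, and 43 could be tested. All 103 lay on human chromosomes 1 to 8, 11, 12, 14 to 17 or 19. Genes such as PLCG1, STK4, LATS2 and VCL had no model among those used, so the families and pathways are covered only in part. By edgeR 14 were called higher and 11 lower, 32.6% and 25.6% of those tested, beside 24.3% and 23.6% of all models, and the median log2 fold change of -0.02 was close to -0.01 for all models. As a group, the relatives were thus close to the background in both directions. Adjusted p-values below are from edgeR's quasi-likelihood test over all 6539 models, and standard errors (SE) are derived from its F value.

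The Ajuba and zyxin LIM proteins showed no other large difference. LIMD1, another Ajuba protein, had 109 and 197 reads in RbLoTem cells against 196 and 140 in RbHiTn cells. It was not called (log2 fold change -0.20, SE 0.14). WTIP, the remaining Ajuba protein, had 1 and 1 reads against 0 and 0. ZYX, a focal adhesion protein gene, had 526 and 827 reads in RbLoTem cells against 474 and 298 in RbHiTn cells and was higher, with a log2 fold change of 0.76 (SE 0.09, adjusted p = 6.7e-09). TRIP6 and LPP had at most 10 reads in a library.

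In the Hippo pathway 8 of 16 models were tested, and 3 were called higher, none lower. These were the kinase genes STK3 (log2 fold change 0.64, SE 0.20, adjusted p = 0.0082) and LATS1 (0.46, SE 0.15, adjusted p = 0.0093) and their cofactor MOB1B (0.40, SE 0.16, adjusted p = 0.041). The 3 calls were lost by DESeq2, by limma on log2(RPKM + 0.1), without the RbHiTn library lacking the suffix (adjusted p from edgeR 0.064, 0.47 and 0.66) and without the RbLoTem library carrying it (0.058, 0.058 and 0.052). MOB1B was also lost without the other RbLoTem library, at 0.17. The coactivator YAP1 had 5 and 5 reads in RbLoTem cells against 1 and 1 in RbHiTn cells, too few to test. TEAD1 had 13 and 19 reads against 20 and 13 and was not called. CYR61, a common target of YAP1, had 19 and 30 reads in RbLoTem cells against 45 and 18 in RbHiTn cells and was not called (log2 fold change -0.40, and 0.05 without the RbHiTn library lacking the suffix), and CTGF had 1 read in all.

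Of 5 tested catenin and junction genes 2 were higher and 2 lower. CTNND1, which encodes p120-catenin, a stabilizer of cadherins, had 39 and 36 reads in RbLoTem cells against 6 and 2 in RbHiTn cells. Its log2 fold change was 3.16 (SE 0.44, adjusted p = 4.0e-07), and the read ratio was 9.08 (interval 4.38 to 21.8). With 1 library left out the log2 fold change ran from 2.86, without the RbHiTn library carrying the suffix, to 3.78, without the one lacking it. CTNNA1, the gene of alpha-catenin, a binding partner of AJUBA, was at an RPKM of 45.7 ± 1.18 in RbLoTem cells and 29.2 ± 2.23 in RbHiTn cells, a log2 fold change of 0.66 (SE 0.06, adjusted p = 8.7e-11). CTNNB1, the gene of beta-catenin, was lower at -0.38 (SE 0.05), and MLLT4 was lower at -0.82 (SE 0.30, adjusted p = 0.024), a call that was lost by DESeq2, by limma and without the RbHiTn library with the suffix or the RbLoTem library lacking it. CDH1, which encodes E-cadherin, had 0 reads in all 4 libraries.

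All 3 other EHD genes were tested, and they went different ways. EHD1, which drives recycling from endosomes, had 832 and 1246 reads in RbLoTem cells against 484 and 282 in RbHiTn cells, higher by a log2 fold change of 1.39 (SE 0.08, adjusted p = 8.3e-16). EHD4 was higher at 0.67 (SE 0.09), while EHD3 was lower at -0.49 (SE 0.13, adjusted p = 0.0022), which DESeq2 did not call. In mean RPKM, EHD1 was at 52.2 in RbLoTem cells and EHD2 at 2.55, so EHD2, with the largest difference, was the least abundant of the 4 there. Whether reads of EHD1 or EHD4 were counted on EHD2 among its non-unique reads was not tested. Of the caveola genes CAV1 had 1 and 4 reads in RbLoTem cells against 0 and 0 in RbHiTn cells. PRKCDBP had 7 and 20 reads in RbLoTem cells against 3 and 1 in RbHiTn cells, a ratio of 6.54 (interval 2.28 to 25.7). CAV2 had 1 and 6 against 0 and 2, and PACSIN3 1 and 6 against 1 and 0. CAV3 and SDPR had 0 reads. All of these had too few reads to test. PACSIN1, an F-BAR protein gene listed with them and the only one tested, was lower (log2 fold change -2.94, SE 0.21, adjusted p = 4.6e-13). It had 14 and 24 reads in RbLoTem cells against 162 and 120 in RbHiTn cells. PTRF and PACSIN2, also on the caveola list, had no model among those used and could not be read.

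Phospholipase C genes diverged. PLCD3 and PLCD4, the other delta isoforms, had at most 4 reads in a library. Of 5 tested relatives 2 were higher and 3 lower. PLCB3 had 156 and 221 reads in RbLoTem cells against 89 and 65 in RbHiTn cells (log2 fold change 1.24, SE 0.15, adjusted p = 1.6e-08). PLCL1, which lacks lipase activity, was higher at 1.16 (SE 0.33, adjusted p = 0.0046), a call that was lost by DESeq2 and without either the RbHiTn or the RbLoTem library with the suffix. With 1 library left out the log2 fold change of PLCL1 ran from 0.82, without the RbHiTn library carrying the suffix, to 1.89, without the one lacking it.

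PLCB2 was lower at -1.80 (SE 0.17) and PLCL2 at -0.79 (SE 0.08). PLCG2, the isoform of B cell receptor signalling, had 5 and 11 reads in RbLoTem cells against 85 and 46 in RbHiTn cells (log2 fold change -3.05, SE 0.32, adjusted p = 1.9e-09). The B cell markers given above fell with it, and their part in this result was not tested.

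TTBK2, the only close relative of TTBK1, had 41 and 62 reads in RbLoTem cells against 40 and 34 in RbHiTn cells and was not called (log2 fold change 0.42, SE 0.24, adjusted p = 0.15). Of the 9 tested genes of the wider casein kinase 1 group, which includes TTBK2, none was higher and CSNK1G2 and VRK2 were lower, at -0.96 (SE 0.07) and -0.87 (SE 0.22). VRK2 was not called by DESeq2 or without the RbLoTem library with the suffix.

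Of 18 other Eph receptor and ephrin models 11 had reads and 2 could be tested. EPHA1 had 14 and 24 reads in RbLoTem cells against 2 and 2 in RbHiTn cells, a log2 fold change of 3.12 (SE 0.57, adjusted p = 2.9e-05) and a read ratio of 9.20 (interval 3.31 to 35.5). EPHB6, a receptor without kinase activity, was lower at -0.65 (SE 0.18, adjusted p = 0.0034), which DESeq2 did not call. EFNA5, which encodes a ligand of EPHA3, had 6 and 5 reads in RbLoTem cells against 3 and 0 in RbHiTn cells, too few to test.

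Among receptor tyrosine phosphatases 5 of 14 models were tested. PTPRU, of the same MAM family as PTPRK, had at most 2 reads in a library. PTPRM and PTPRT, also of that family, had no model among those used and could not be read. PTPRN, known from secretory granules of neuroendocrine cells, had 34 and 47 reads in RbLoTem cells against 4 and 2 in RbHiTn cells. Its log2 fold change was 3.66 (SE 0.44, adjusted p = 2.4e-08) and its read ratio 13.1 (interval 5.75 to 36.7). PTPRJ, the gene of CD148, was higher at 1.20 (SE 0.15, adjusted p = 8.0e-08). PTPRC, the gene of CD45, whose CD45Rb form served for the sort, was lower at -0.53 (SE 0.05).

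Among the relatives of LPAR3 by lysophosphatidic acid signalling 3 genes were tested, of which 1, ENPP2, was called higher and 0 lower. PPAP2A, with 46 and 54 reads in RbLoTem cells against 85 and 38 in RbHiTn cells, was not called (log2 fold change -0.33, SE 0.22). ENPP2 encodes autotaxin, the secreted enzyme that makes lysophosphatidic acid, and had 55 and 64 reads in RbLoTem cells against 2 and 2 in RbHiTn cells. The RPKM was 1.61 ± 0.191 in RbLoTem cells and 0.0583 ± 0.0179 in RbHiTn cells. The log2 fold change was 4.77 (SE 0.44, adjusted p = 8.6e-11) and the read ratio 28.8 (interval 11.0 to 107). It was the largest increase among the tested relatives. Of the other receptors for this lipid, LPAR2 had at most 10 reads in a library, LPAR5 had 2 and 12 reads in RbLoTem cells against 25 and 5 in RbHiTn cells and was not called, and LPAR1, LPAR4 and LPAR6 were not among the models used here. The sphingosine phosphate receptors had 2 and 3 reads in RbLoTem cells against 6 and 0 in RbHiTn cells, all on S1PR1.

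**Figure D4:**
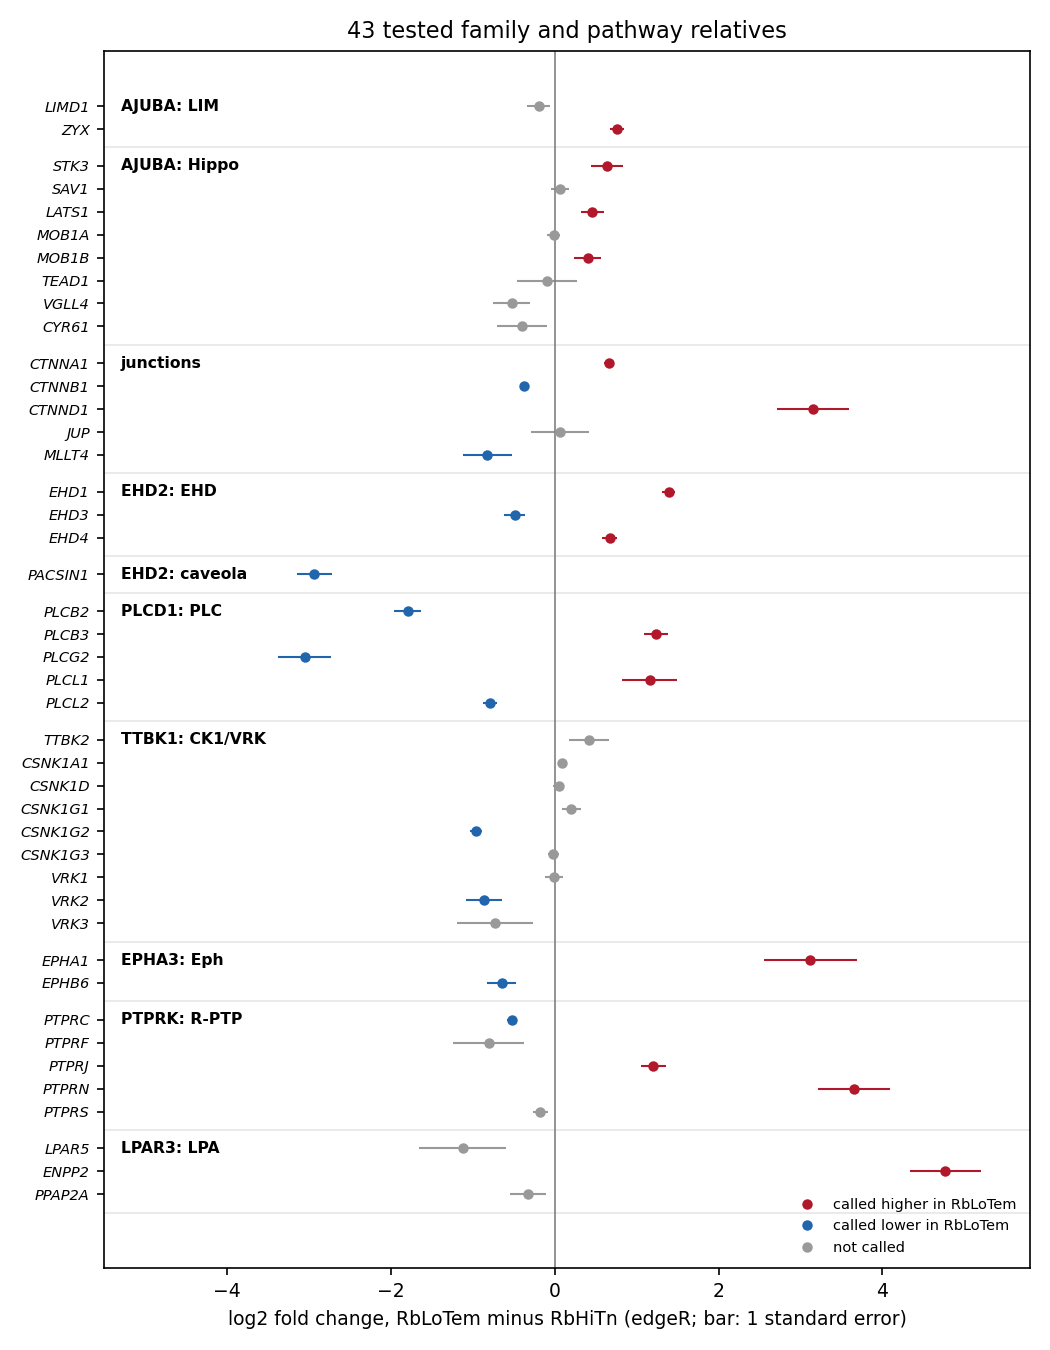
Log2 fold change of RbLoTem minus RbHiTn cells from edgeR, with 1 standard error, for the 43 tested relatives grouped by the member they belong to, in red where called higher, blue where called lower and grey where not called. ENPP2, PTPRN, CTNND1 and EPHA1 lie furthest to the right, between 3.12 and 4.77, while 18 relatives were not called.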

How the data were processed

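Messenger RNA of RbLoTem and RbHiTn cells was sequenced in 2 libraries per subset. For upstream steps the methods name Trimmomatic, TopHat with mm10, htseq-count and DESeq2. The read counts deposited by the authors are in another layout, with total, unique, junction and intron-exon reads on human gene models. Which aligner and annotation made these tables, and whether strand was used, is not stated. The RPKM deposited by the authors is total exon reads divided by exon length in kb and by the library's reads within genes, in the usual scale. The median coverage signal deposited by the authors is not scaled by depth.

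The quasi-likelihood test of edgeR 4.0.16 (R 4.3.3) was applied to total exon reads after TMM scaling and filterByExpr, with no block and a threshold of 0.05 on p adjusted by Benjamini-Hochberg over 6539 models. The common biological coefficient of variation was 0.0432. The scripts were tested on simulated data. As alternatives, DESeq2 1.42.0 and limma 3.58.1 (log2 of RPKM with 0.1 or 1 added) replaced edgeR, or edgeR was run with unique reads, without the filter, with library size alone or DESeq2 size factors, with a block on the suffix, or with 1 library left out. Read ratios use TMM-scaled sizes, with exact counting intervals from scipy 1.17.1, which cover counting error only. Where a subset had 0 reads, 3 reads over the group were the floor.

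The 10 genes, the lists, the tests and the rule for naming genes (the 10 genes, their closest relatives, relatives called by edgeR, and the 3 models of nearest profile) were chosen with earlier results of these data known. Other genes named were chosen after their values were seen. Reads of paralogs or antisense genes cannot be separated.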

Additional observations from a re-analysis of the deposited data

How the results depend on the processing

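Read ratios of the 10 genes stayed above 1 under each alternative that gave a value (unique reads, all reads in the gene, junction reads, which C12orf68 lacks, library size alone, each library left out). The choice of the genes on these same reads fixes that outcome, so nothing is read from it. The number at a ratio or bound of 16 or more was 8 with junction reads, and 6 to 10 with each library left out, 6 without the RbHiTn library lacking the suffix (where the bounds of OSR2 and C12orf68 and the ratios of LPAR3 and PTPRK were under 16). With DESeq2, 1078 models were called higher and 937 lower, against 1592 and 1545 by edgeR, and 10 relatives were higher and 7 lower, against 14 and 11. The cause of the lower counts was not tested. With each library left out, edgeR called 10 to 14 relatives higher and 10 to 13 lower, and no relative called with all libraries changed direction. LPAR5 was called lower with unique reads, without the RbHiTn library with the suffix and without the RbLoTem library with it, where LIMD1 and PTPRS were also called lower. VGLL4 was called lower with library size alone, unique reads and the block. Deviations from the subset mean, over the tested models, correlated at -0.015 between the libraries lacking the suffix. This cannot decide whether the suffix pairs libraries, since each subset has only 2 and each deviation carries counting error. With a replicate block on the suffix, 1562 models were higher and 1530 lower, and MOB1B was no longer called. LPAR3 rests on 33 reads in RbLoTem cells, and low reads in RbHiTn cells leave most ratios loosely bounded above.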
